A study of Mus musculus with 18 samples.

Results

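Jchain and 6 other genes of plasma cell identity were followed in mouse thymocyte samples at 6, 16 and 24 months of age, each set against 1 month. The members are the 7 genes whose deposited names are Igj (now Jchain), Xbp1, Prdm1, 1810063P04Rik (now Derl3), Sdc1, Irf4 and Pou2af1, out of 15953 genes named on the array. Each was read by 1 of its 41174 distinct non-control probes. They were chosen with their values in these samples known, so what follows on the members is a description and carries no test. Each of 9 Agilent 2-colour arrays held, in the Cy3 channel, thymocytes of a C57BL/6 mouse of 6, 16 or 24 months (3 arrays per age), and in the Cy5 channel the 1 month C57BL/6 reference. No group carried a mutation or a drug treatment. Whether this reference was a pool, as the design says, or a numbered mouse per array, as its labels read, is unsettled. The samples were whole suspensions: thymi were broken up, strained through nylon mesh, washed free of fat cells and treated to lyse red cells, with no sort by surface markers.

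Plasma cells are the antibody-secreting end stage of the B lineage. Irf4 and Prdm1 (Blimp-1) switch the B cell program towards secretion, Xbp1 is the transcription factor of the unfolded protein response that enlarges the endoplasmic reticulum (ER), and Pou2af1 (OCA-B) is a coactivator that works with octamer-binding factors on immunoglobulin genes. The J chain joins IgM and IgA monomers into polymers that cross epithelia, Derl3 (derlin-3) helps to move misfolded proteins out of the ER for degradation, and Sdc1 (syndecan-1, CD138) is a proteoglycan of the plasma cell surface. The thymus of the mouse is known to hold a small population of B cells and some plasma cells beside its thymocytes.

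The members lie on separate chromosomes except for Prdm1 and Derl3, both on chromosome 10. Gene starts and the 250 bases before them were taken from RefSeq on GRCm38.p6, in which all 7 members had an entry. The Prdm1 window, chr10:44458749-44458998 on the minus strand, lies inside the listed extent of the gene, 44437174 to 44528558. It does not adjoin the outer end of the gene, and the motif search for Prdm1 covers this window only. The windows of Derl3, Pou2af1 and Jchain are shown because they differ in the motifs through which Xbp1 and the unfolded protein response are known to act. Capitals mark matches to the ER stress response element (ERSE, CCAAT and CCACG 9 bases apart), the unfolded protein response element (UPRE, TGACGTGG) or the XBP1 core (GCCACGT), each searched on both strands. The windows are Derl3 at chr10:75893148-75893397 on the plus strand, Pou2af1 at chr9:51213440-51213689 on the plus strand and Jchain at chr5:88527898-88528147 on the minus strand, each printed 5′ to 3′ towards the gene.
Derl3: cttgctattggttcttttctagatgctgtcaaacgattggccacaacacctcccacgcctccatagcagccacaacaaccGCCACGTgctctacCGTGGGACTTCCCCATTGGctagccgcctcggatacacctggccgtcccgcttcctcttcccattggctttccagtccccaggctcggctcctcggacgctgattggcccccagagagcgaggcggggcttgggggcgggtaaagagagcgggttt
Pou2af1: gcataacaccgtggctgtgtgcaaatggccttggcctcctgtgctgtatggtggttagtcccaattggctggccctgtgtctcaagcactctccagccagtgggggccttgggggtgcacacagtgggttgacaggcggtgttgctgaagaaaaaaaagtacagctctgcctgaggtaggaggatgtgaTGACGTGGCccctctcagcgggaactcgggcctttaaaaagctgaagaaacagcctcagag
Jchain: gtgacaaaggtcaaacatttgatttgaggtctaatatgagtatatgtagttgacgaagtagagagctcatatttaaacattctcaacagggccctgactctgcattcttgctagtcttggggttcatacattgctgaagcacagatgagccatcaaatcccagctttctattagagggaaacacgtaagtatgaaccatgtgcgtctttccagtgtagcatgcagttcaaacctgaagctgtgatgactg

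The Derl3 window held an XBP1 core 170 to 164 bases before the start and, on the opposite strand, an ERSE 156 to 138 bases before it. The Pou2af1 window held a UPRE 61 to 54 bases before the start, overlapped on the opposite strand by an XBP1 core at 59 to 53 bases. No window of the other 5 members held any of these motifs. Over all 32851 promoters of the same length the ERSE was found in 37 (0.113%), the UPRE in 185 (0.563%) and the XBP1 core in 664 (2.02%). Among 99 promoters of the secretory and plasma cell genes listed further on, the counts were 8, 6 and 18. None of the 7 windows held the octamer ATGCAAAT (1.60% of all promoters), an Ets-Irf composite element (2.30%), a Prdm1-type element (0.207%) or an ERSE-II (0.0304%). These matches describe letters in the windows only.

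Values are log2 ratios of the Cy3 over the Cy5 processed signal of the same array. These signals had their background subtracted and the 2 dyes normalized by the scanner software before deposit. A positive log2 ratio means a higher signal in the older sample than in the 1 month reference. No array had its dyes swapped, so age against 1 month cannot be told apart from Cy3 against Cy5. In such bulk RNA, more cells of a type and more RNA per cell cannot be told apart either.

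Jchain had the largest mean log2 ratio of the 7 members at every age. The Cy3 signals were 2110, 1341 and 1995 in the 6 month samples, against 1357, 1074 and 1240 in the 1 month reference on the same arrays. They were 14187, 8260 and 3914 in the 16 month samples, against 1594, 1315 and 1111 in the 1 month reference. In the 24 month samples they were 8090, 3312 and 8801, against 1281, 813 and 1087 in the 1 month reference. Every older sample thus gave a brighter spot than its reference, and the lowest Cy3 signal at 16 or 24 months lay above the highest at 6 months.

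The Jchain log2 ratio averaged 0.55 ± 0.20 at 6 months, 2.54 ± 0.68 at 16 months and 2.57 ± 0.50 at 24 months (SD, n = 3 arrays each). These means correspond to 1.46-fold, 5.82-fold and 5.93-fold over the 1 month reference. The 16 month mean was 3.98-fold and the 24 month mean 4.06-fold above that of 6 months. Between 24 and 16 months the difference was 0.03 on the log2 scale, smaller than the SD at either age, and the arrays of the 2 ages overlapped. Within the 16 month group the ratios were 3.15, 2.65 and 1.82, so that the fold over the reference ranged widely between mice of one age. With another background correction and median centring (described under processing) the Jchain means were 0.21, 1.93 and 1.69 at 6, 16 and 24 months. In that setting Irf4 at 0.48, Sdc1 at 0.45 and Prdm1 at 0.30 lay above Jchain at 6 months.

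A second probe for the J chain transcript, named in the file by its accession and outside the choice of members, gave the same order of ages. Its log2 ratios were 0.80, 0.58 and 1.28 at 6 months, 3.01, 2.58 and 2.03 at 16 months, and 2.87, 2.38 and 2.72 at 24 months. The means were 0.88 ± 0.36, 2.54 ± 0.49 and 2.66 ± 0.25 (SD, n = 3 each). The 16 and 24 month ratios did not overlap with those of 6 months in either probe, and replicate 3 was the lowest of the 16 month samples in both. Both probes were well above background in both channels of all 9 arrays.

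**Figure D1:**
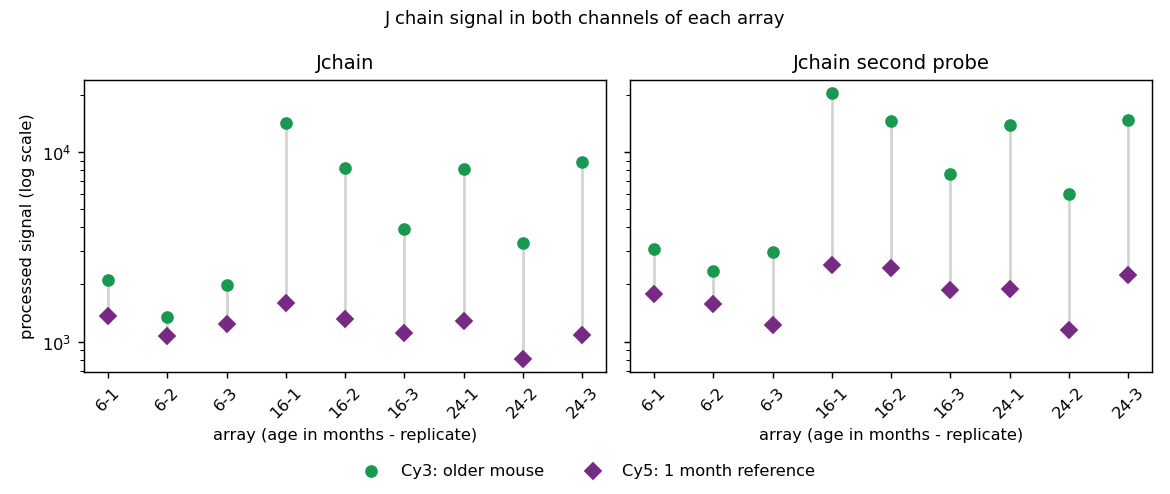
Processed signal (log axis, arbitrary scanner units) of both J chain probes on each of the 9 arrays, named by age in months and replicate. Green circles are the older mouse (Cy3), purple diamonds the 1 month reference (Cy5), and grey lines join the channels of an array. For the first probe the reference stays between 813 and 1594 while the 16 and 24 month samples lie between 3312 and 14187.

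The regulators of the plasma cell program showed smaller values, and their highest means were at 16 months. The Xbp1 log2 ratios were 0.32, -0.02 and -0.13 at 6 months, 0.81, 0.58 and 0.26 at 16 months, and 0.37, 0.03 and 0.44 at 24 months. The Xbp1 means were 0.06 ± 0.23, 0.55 ± 0.28 and 0.28 ± 0.22 (SD, n = 3 each), with overlap between all ages. All 6 of the 16 and 24 month samples lay above their reference, but with another background correction and median centring (described under processing) the Xbp1 means were -0.17, 0.20 and -0.13, so the sign at 6 and 24 months turned.

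Irf4 had log2 ratios of -0.12, 0.02 and -0.07 at 6 months, 0.65, 0.47 and 0.12 at 16 months, and 0.46, -0.28 and 0.30 at 24 months. The means were -0.06 ± 0.07, 0.41 ± 0.27 and 0.16 ± 0.39 (SD, n = 3 each), and with the other background correction and loess the 16 month mean was 0.06. All 16 month samples were above all 6 month samples, while the 24 month samples spread on both sides of the reference. With the other correction and median centring the Irf4 means were 0.48, 0.44 and 0.54, so the order of the ages and the sign at 6 months depended on the scaling.

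Prdm1 showed small ratios at all 3 ages. Its log2 ratios were 0.18, -0.11 and 0.09 at 6 months, 0.46, 0.27 and 0.23 at 16 months, and 0.02, -0.15 and 0.15 at 24 months. The means were 0.05 ± 0.15, 0.32 ± 0.12 and 0.00 ± 0.15 (SD, n = 3 each). The 3 samples of 16 months lay above all 3 of 6 months and all 3 of 24 months, whereas for Jchain the 24 and 16 month samples overlapped. With the other correction and median centring the Prdm1 means were 0.30, 0.39 and 0.34.

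Pou2af1 works beside these factors on immunoglobulin genes. Its log2 ratios were -0.04, -0.04 and 0.13 at 6 months and 1.28, 0.66 and 0.31 at 16 months. At 24 months they were 0.15 and 0.84 in replicates 2 and 3. The Pou2af1 spot of 24 month replicate 1, at 0.41, was marked as an outlier by the scanner software and left out of the mean. The Pou2af1 means were 0.02 ± 0.10 (SD, n = 3), 0.75 ± 0.49 (SD, n = 3) and 0.50 ± 0.49 (SD, n = 2), and with the marked spot the 24 month mean was 0.47 ± 0.35 (SD, n = 3). Every 16 and 24 month value lay above every 6 month value, but with the other correction and median centring the Pou2af1 means were -0.25, 0.32 and -0.05, so the sign turned at 6 and 24 months.

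Of the secretory and surface proteins, Derl3 had its highest mean at 24 months. Its log2 ratios were -0.11, 0.05 and 0.12 at 6 months, 0.74, 0.60 and 0.07 at 16 months, and 0.77, 0.43 and 0.47 at 24 months. The Derl3 means were 0.02 ± 0.12, 0.47 ± 0.35 and 0.56 ± 0.19 (SD, n = 3 each), the last being 1.47-fold over the 1 month reference. The 24 month samples all lay above the 6 month samples, whereas at 16 months replicate 3 lay among them. With the other background correction the Derl3 means were 0.03, 0.22 and 0.27 after loess and 0.17, 0.30 and 0.36 after median centring.

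Sdc1 was the only member not well above background in every channel. The log2 ratios were 0.11, -0.82 and -0.53 at 6 months, 0.49, 1.21 and -0.11 at 16 months, and 0.83, -0.55 and -0.18 at 24 months. The Cy3 signal was not well above background in 6 month replicate 3 and in 24 month replicate 2. The Sdc1 means of -0.42 ± 0.48, 0.53 ± 0.66 and 0.03 ± 0.71 (SD, n = 3 each) came from arrays that overlapped between all ages, and with the other correction and median centring the 6 month mean was 0.45.

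**Figure D2:**
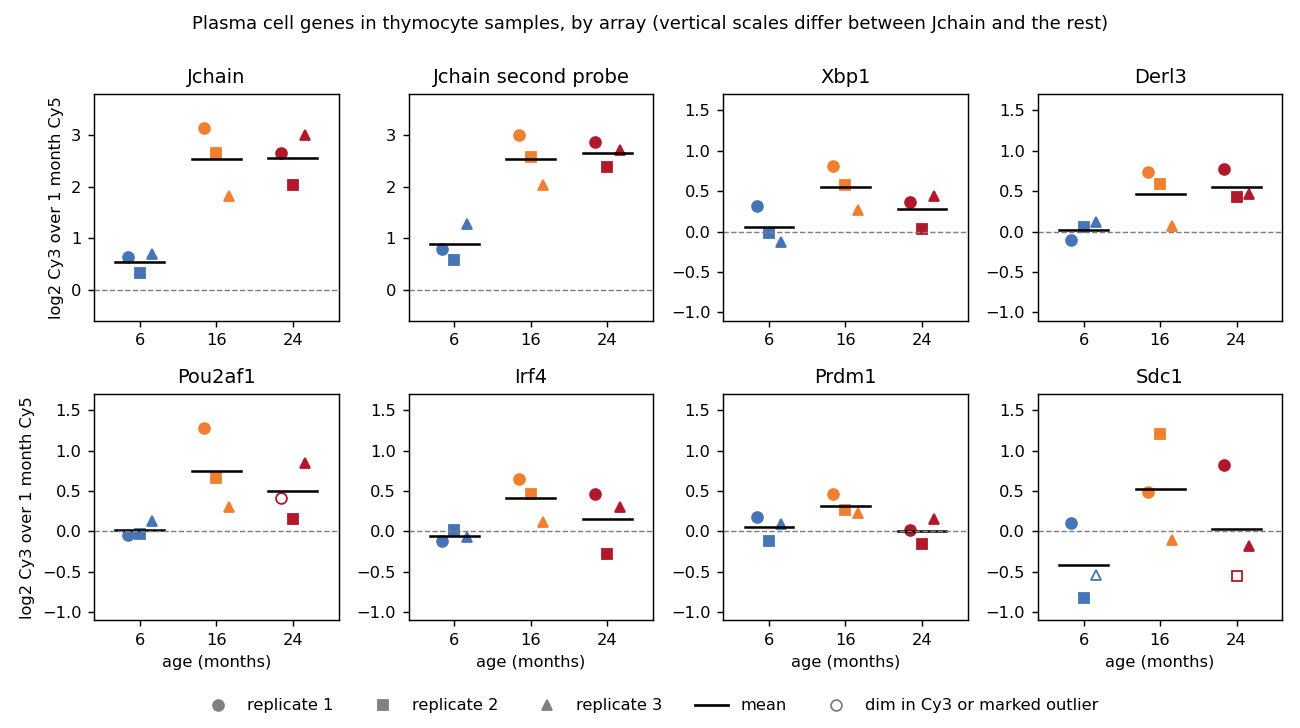
Log2 ratio of Cy3 (older mouse) over Cy5 (1 month reference) by age in months for the 7 members and the second J chain probe. Symbols mark replicates, black bars group means, open symbols a spot that was dim in Cy3 or marked as an outlier, and the dashed line equality with 1 month. The vertical scale of the Jchain panels is larger than that of the others: Jchain reaches 3.15, Pou2af1 1.28.

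Counted over the members, all 3 log2 ratios were above 0 for 1 of 7 at 6 months (Jchain), 6 of 7 at 16 months (all but Sdc1) and 4 of 7 at 24 months (Jchain, Xbp1, Derl3 and Pou2af1, its marked spot included). Over all 37448 probes that passed the filter on dim probes, as all 7 members did, these shares were 26.9%, 28.8% and 25.7%. The 16 month samples lay wholly above the 6 month samples for 4 of 7 members (Jchain, Prdm1, Irf4 and Pou2af1), against 7.27% of all probes. The 24 month samples lay wholly above the 6 month samples for 3 of 7 (Jchain, Derl3 and Pou2af1), against 5.91%. No member had its 24 month samples wholly above those of 16 months, against 4.35%. The members were chosen on these ratios, so the counts are given without reading more from them.

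The array of 24 month replicate 2 stood apart in signal: 79.6% of its features were well above background in Cy3, against 85.9% to 94.2% on the other 8 arrays. It gave the lowest 24 month log2 ratio for each of the 7 members. Without it the 24 month means were 2.84 for Jchain, 0.41 for Xbp1, 0.08 for Prdm1, 0.62 for Derl3, 0.32 for Sdc1, 0.38 for Irf4 and, from 1 remaining array, 0.84 for Pou2af1. Its part in the 24 month values was not tested further.

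The Jchain Cy5 signal ranged less over the arrays than the Jchain mean folds at 16 and 24 months. Over the 9 Cy5 channels the Jchain signal had its lowest value at 813, its median at 1240 and its highest at 1594, a 1.96-fold range. The Cy5 ranges of the others were 1.35-fold for Sdc1, 1.39-fold for Prdm1, 1.61-fold for Derl3, 1.64-fold for Xbp1, 1.94-fold for Irf4 and 2.84-fold for Pou2af1. The Jchain mean folds at 16 and 24 months exceeded its Cy5 range. Of the other members only Sdc1 at 16 months, at 1.44-fold, did so, from log2 ratios of 0.49, 1.21 and -0.11 (SD 0.66). Cy5 signals were not scaled between arrays, so their ranges include array brightness and do not measure the spread of the reference alone.

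The other genes of the secretory pathway, of which 110 of 124 listed could be tested, were compared with 1 month in one limma model over all 9 arrays, with Benjamini-Hochberg adjustment over 37448 probes and a threshold of 0.05. If the reference was 1 pool, this test of a mean log2 ratio against 0 leaves out the spread of the 1 month mice. Here and below, rose and fell mean a higher or lower Cy3 than 1 month Cy5 signal, not a change between the later ages. Age and dye cannot be told apart in such a call. At 6 months 21 of the 110 rose and 3 fell (21.8%), against 12.4% of all probes called (7.61% higher, 4.76% lower). At 16 months 39 rose and 9 fell (43.6%), against 18% of all probes (11.4% higher, 6.59% lower). At 24 months 28 rose and 18 fell (41.8%), against 24.9% of all probes (11.6% higher, 13.3% lower). Each list gene was read by its tested probe of highest mean signal, while all probes include dimmer and unnamed ones. The shares therefore compare unlike probes. A list of 18 thymocyte genes, read in the same way, was called at 38.9%, 50% and 55.6%, so such shares were not particular to the secretory genes. Over all probes the split also moved with the scaling. With the deposited scores 2475 were higher and 2788 lower at 6 months, and 3476 and 4132 at 16 months. With the other correction and loess 4851 were higher and 4280 lower at 16 months, and after median centring 9140 and 10488 at 6 months and 6868 and 9792 at 16 months. The split depended on the scaling: with the other background correction and median centring 12 rose and 48 fell at 6 months, 14 and 37 at 16 months, and 15 and 67 at 24 months, and with the authors' deposited scores 16 rose and 9 fell at 6 months and 34 and 16 at 16 months. Median log2 ratios over the 110 were 0.04, 0.14 and 0.08, beside -0.01, -0.01 and -0.02 over all probes. With the haemoglobin of each array as a covariate (described further on) no list gene passed at 6 months, and 6 were called there without 6 month replicate 1, 2 without replicate 2 and 14 without replicate 3. Without 16 month replicate 2 the count at 16 months was 11, and without 24 month replicate 1 that at 24 months was 15. Of the genes named below, Atf6b and Srp14 passed at both 16 and 24 months under every alternative except the fit without the 3 arrays highest in haemoglobin, in which Srp14 passed at 24 months only.

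Chaperones and sensors of the unfolded protein response, which fold secreted proteins and report their misfolding, had list medians of 0.13, 0.37 and 0.29 on the log2 scale, the highest of the 4 secretory lists. Of 27 tested, 7 rose and none fell at 6 months, 16 rose and 1 fell at 16 months, and 12 rose and none fell at 24 months. With the other correction and median centring these splits were 4 and 8, 5 and 5, and 4 and 15, and with the deposited scores 6 and 1 at 6 months and 10 and 2 at 24 months. Pdia4, a disulfide isomerase of the ER, had log2 ratios of 1.29, 1.73 and 1.07 at 16 months and 1.46, 0.88 and 1.05 at 24 months. The Pdia4 means of 1.36 (SE 0.24, adjusted p = 0.00912 in limma) and 1.13 (SE 0.24, adjusted p = 0.0147 in limma) are 2.57-fold and 2.19-fold. The first call was lost without 16 month replicate 2 (adjusted p = 0.073) and the second without 24 month replicate 1 (adjusted p = 0.076).

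Calr, the lectin chaperone calreticulin, rose to mean log2 ratios of 0.54, 0.89 and 0.72 at 6, 16 and 24 months (SE 0.10 each, adjusted p = 0.0193, 0.00286 and 0.00497 in limma), although with the other correction and median centring the means were 0.12, 0.41 and 0.04 and did not pass. Atf6b, a membrane-bound sensor related to Atf6, was called higher at all 3 ages, at 0.73, 1.03 and 0.92 (SE 0.15 each, adjusted p = 0.0227, 0.0052 and 0.0069 in limma). Serpinh1, a chaperone of collagen known from connective tissue, rose at 16 months to 1.19 (SE 0.28, adjusted p = 0.0246 in limma), a call lost without 16 month replicate 2 (adjusted p = 0.15) or replicate 3 (adjusted p = 0.099). Hspa5 (BiP), the major ER chaperone, was singled out after its values were seen and had mean log2 ratios of 0.41, 0.65 and 0.56 (SE 0.11 each, adjusted p = 0.049, 0.0083 and 0.013 in limma).

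Genes of ER-associated degradation, the pathway of Derl3, were mixed. Of 18 tested, 4 rose and none fell at 6 months, 8 rose and 1 fell at 16 months, and 5 rose and 3 fell at 24 months. The 24 month split was 2 and 3 with the other correction and loess, and the splits were 2 and 8, 2 and 5, and 3 and 12 after median centring. Edem2, which directs misfolded glycoproteins to degradation, rose at 16 months to 0.78 (SE 0.19, adjusted p = 0.0264 in limma), but the mean was 0.24 with the other correction and loess (adjusted p = 0.063). Without any one of the 16 month replicates the Edem2 call was lost. Sdf2l1, an ER stress-induced partner of chaperones, rose to 0.76 at 16 months (SE 0.19, adjusted p = 0.0294 in limma) and 0.63 at 24 months (SE 0.19, adjusted p = 0.0434 in limma), and the later mean was 0.08 with the other correction and median centring. The paralogs Derl1 and Derl2, also singled out after their values were seen, had mean log2 ratios of -0.05, 0.11 and -0.04 for Derl1 and -0.04, 0.07 and 0.03 for Derl2, none past the threshold.

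Genes of translocation into the ER moved in both directions, with 6 of 28 tested rising and 1 falling at 6 months, 7 and 5 at 16 months, and 6 and 7 at 24 months. With the other correction and median centring the splits were 1 and 15, 1 and 15, and 1 and 22, and with the deposited scores 4 and 3, 7 and 9, and 5 and 9. Tram1, a membrane protein of the translocation channel, was called higher at all 3 ages, at 0.57, 0.73 and 0.67 (SE 0.06 each, adjusted p = 0.00481, 0.0014 and 0.00206 in limma). Yet its means were 0.01 at 6 months and -0.17 at 24 months with the other correction and median centring. Srp14, a subunit of the signal recognition particle, was called lower at all 3 ages, at -0.51, -0.58 and -0.67 (SE 0.07 each, adjusted p = 0.00719, 0.00303 and 0.00234 in limma). For Tram1 and Srp14 the 3 means were near one another, and age cannot be told apart from dye in them.

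Genes of vesicle traffic from the ER to the Golgi rose in 3 and fell in 1 of 25 tested at 6 months. They rose in 5 and fell in 2 at 16 months, and rose in 3 and fell in 8 at 24 months. That is 16%, 28% and 44% called, against 12.4%, 18% and 24.9% of all probes. After median centring with the other correction the first and second splits were 3 and 14 and 3 and 11, after loess 3 and 3 and 5 and 4, and with the deposited scores 2 and 4 and 5 and 4. Sec16a, which organizes ER exit sites, rose to 0.83 at 16 months (SE 0.17, adjusted p = 0.0166 in limma) and 0.61 at 24 months (SE 0.17, adjusted p = 0.0372 in limma), the 24 month mean being 0.28 with the other correction and loess (adjusted p = 0.12). Sec23a, a coat protein of these vesicles, was called lower at 24 months at -0.91 (SE 0.23, adjusted p = 0.0278 in limma), but with the other correction it was -0.04 after loess and 0.88 after median centring.

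Further plasma cell genes were called at 16.7%, 25% and 16.7% at 6, 16 and 24 months, against 12.4%, 18% and 24.9% of all probes. Among 12 tested, 1 rose and 1 fell at 6 months, 3 rose at 16 months and 2 rose at 24 months. These splits became 2 and 1 at 6 months after the other correction and loess, and 3 and 1 at 16 months and 3 and 2 at 24 months after median centring. Mzb1, an ER cochaperone of immunoglobulin assembly in B and plasma cells, had log2 ratios of -0.01, -0.07 and -0.03 at 6 months, 1.43, 0.57 and 0.37 at 16 months, and 1.33, 0.20 and 0.84 at 24 months. Its mean was 0.79 at both later ages (SE 0.23 each), which passed at 24 months (adjusted p = 0.0438 in limma) and not at 16 months (adjusted p = 0.054 in limma). The 24 month Mzb1 call was lost without 24 month replicate 1 (adjusted p = 0.20) or replicate 3 (adjusted p = 0.12), and with the other correction and loess (adjusted p = 0.051). Tnfrsf17 (BCMA), the survival receptor of plasma cells, had mean log2 ratios of -0.26, 0.37 and 0.24 and did not pass at any age. Pigr, the epithelial receptor that carries J chain-containing polymers, fell at 6 months to -1.35 (SE 0.20, adjusted p = 0.00981 in limma) and had -0.27 and -0.08 at 16 and 24 months.

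**Figure D3:**
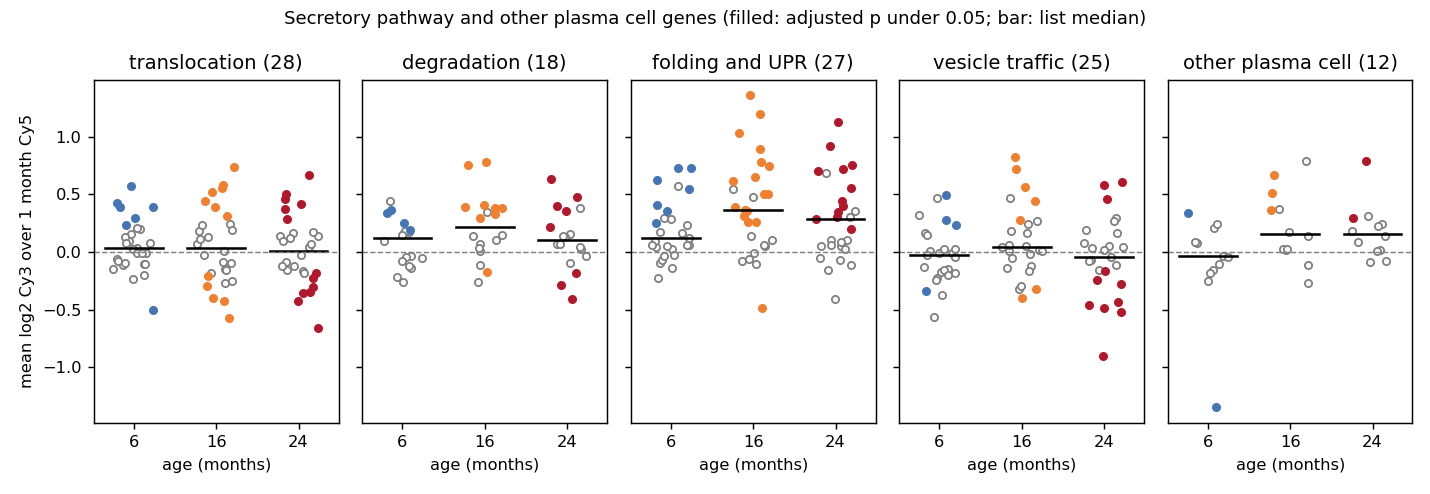
Mean log2 ratio of Cy3 over the 1 month Cy5 reference by age in months for each tested gene of 5 lists (number of genes in brackets). Filled points have an adjusted p under 0.05 in limma, open points do not, and bars are list medians. The folding list has medians of 0.13, 0.37 and 0.29, and the vesicle list has 8 filled points below 0 at 24 months.

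Paralogs of the members were called at 14.3%, 21.4% and 21.4% at 6, 16 and 24 months. These shares were near the 12.4%, 18% and 24.9% of all probes. Of 14 tested paralogs 1 rose and 1 fell at 6 months, and 1 rose and 2 fell at each of 16 and 24 months. None fell at 6 months with the other correction and loess, and 2 rose at 16 months with it and median centring. Sdc3, a syndecan known from nerve and muscle, had nearly the same mean at 6, 16 and 24 months, at 0.77, 0.83 and 0.82. All 3 were called higher (SE 0.14 each, adjusted p = 0.0171, 0.00877 and 0.008 in limma), and age cannot be told apart from dye in them. Irf2 fell at 16 and 24 months to -0.53 and -0.48 (SE 0.12 each, adjusted p = 0.0238 and 0.0271 in limma). Of 15 tested partners and antagonists, 1 rose at 6 months, 1 at 16 months, and 3 rose and 1 fell at 24 months. That is 6.67%, 6.67% and 26.7% called, beside the same shares of all probes. The mean ratios of all 6 calls took the opposite sign with the other correction and median centring. There 1 rose and 3 fell, none rose and 2 fell, and 2 rose and 5 fell. Pax5 and Bcl6, which oppose the plasma cell program, were named after their values were seen. They did not pass at any age, with means of -0.17, -0.05 and -0.15 for Pax5 and -0.29, -0.10 and -0.32 for Bcl6.

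Between the ages, limma called 0 of 37448 probes at an adjusted p under 0.05 in each of the 3 comparisons, and so none of the 110 list genes. At an unadjusted p under 0.05 it called 2388 probes (6.38%) for 16 against 6 months, 3412 (9.11%) for 24 against 6 months and 1786 (4.77%) for 24 against 16 months. Tnfrsf17 had 0.57, 0.55 and -0.01 in the 16 month samples, against -0.27, -0.31 and -0.19 in the 6 month samples. That difference of 0.62 had an unadjusted p of 0.0037 and an adjusted p of 0.77 in limma.

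All 18 thymocyte markers were well above background in Cy3 on every array, but so were 79.6% to 94.2% of all features. All 10 conventional dendritic cell markers were too, so this flag cannot settle which cells the samples held. Of 14 B cell markers on the array 13 or 14 were above background on each array, among them Ms4a1 and Cd79b on all 9. The summed Cy3 signal of the B cell list ranged from 22118 to 26092 at 6 months, 29062 to 39019 at 16 months and 17586 to 30432 at 24 months, against 17696 to 27199 in the 1 month reference. Such sums, here and below, were not scaled between arrays and include array brightness. The lowest, 17586 in 24 month replicate 2, stood beside 17696 in the reference of the same array. The median log2 ratio of the B cell list per array was 0.01 to 0.02 at 6 months. It was 0.09 to 0.30 at 16 months and 0.00 to 0.15 at 24 months. Over the 14 genes, 10 mean ratios were above 0 at 16 months and 8 at 24 months. In limma 2 B cell genes rose at 16 months (Blnk, an adaptor of the B cell receptor, at 1.23, and Cd79b, a receptor subunit, at 0.66) and 1 at 24 months (Ebf1 at 0.48), which makes 0%, 14.3% and 7.14% of the 14 genes called, against the 12.4%, 18% and 24.9% of all probes given before. With the other correction and median centring 2 rose and 3 fell at 16 months, and 2 rose and 4 fell at 24 months. The Blnk and Cd79b calls were lost without 16 month replicate 1 (adjusted p = 0.092 and 0.13) or replicate 2 (adjusted p = 0.088 and 0.11), and the Ebf1 call with the other correction and loess (adjusted p = 0.085).

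Of 90 probes that the array describes as immunoglobulin chains, 4 rose at 6 months and 61 at 16 months in limma. At 24 months 51 rose and 1 fell. That is 4.44%, 67.8% and 57.8% called, against 12.4%, 18% and 24.9% of all probes. At 6 months the counts were 4 and 2 with the other correction and loess, 28 and 5 with it and median centring, and 3 and 1 with the deposited scores. At 16 months 31 probes rose without 16 month replicate 1 and 18 without replicate 2, and at 24 months 17 rose without 24 month replicate 1 and 27 without replicate 3. Immunoglobulin chains are a family of near-identical genes whose probes can share signal. The summed Cy3 signal of the 90 was 119127, 82329 and 86967 at 6 months, 370891, 270767 and 147509 at 16 months, and 197515, 719478 and 155055 at 24 months, against 69463 to 87995 in the 1 month reference. At 24 months this sum was highest in replicate 2, which had the lowest Jchain ratio of its age. There 79 of the 90 probes were well above background in Cy3. A sum follows the brightest probes more than a median does. The median log2 ratio of the 90 per array was 0.15, -0.00 and 0.06 at 6 months, 1.80, 1.24 and 0.43 at 16 months, and 1.19, 0.51 and 0.86 at 24 months. The order of the 16 month replicates in these medians was that of Jchain, whereas at 24 months Jchain was highest in replicate 3 and the immunoglobulin median in replicate 1. Replicate 2 was the lowest of the 24 month samples both in Jchain and in the immunoglobulin median. In limma 0, 2 and 1 of 14 macrophage genes rose at 6, 16 and 24 months and none fell. These shares of 0%, 14.3% and 7.14% lay below the 12.4%, 18% and 24.9% of all probes. Macrophage markers summed to 33932 to 37624 at 6 months, 57645 to 93268 at 16 months and 29205 to 89352 at 24 months, against 29130 to 46719 in the 1 month reference. Much of this sum was lysozyme, singled out after its values were seen: Lyz2 had a Cy3 signal of 58993 and Lyz1 one of 12738 in 16 month replicate 2. The median log2 ratio of the macrophage list lay between 0.10 and 0.21 on the 16 month arrays. Granulocyte markers summed to 122970 in 16 month replicate 2, against at most 16808 in the other 8 older samples and 22290 to 40215 in the 1 month reference. Of 10 granulocyte genes 1, 1 and 5 fell at 6, 16 and 24 months and none rose. That is 10%, 10% and 50% called, beside the same shares of all probes. The part of these cells in the members' ratios was not tested.

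**Figure D4:**
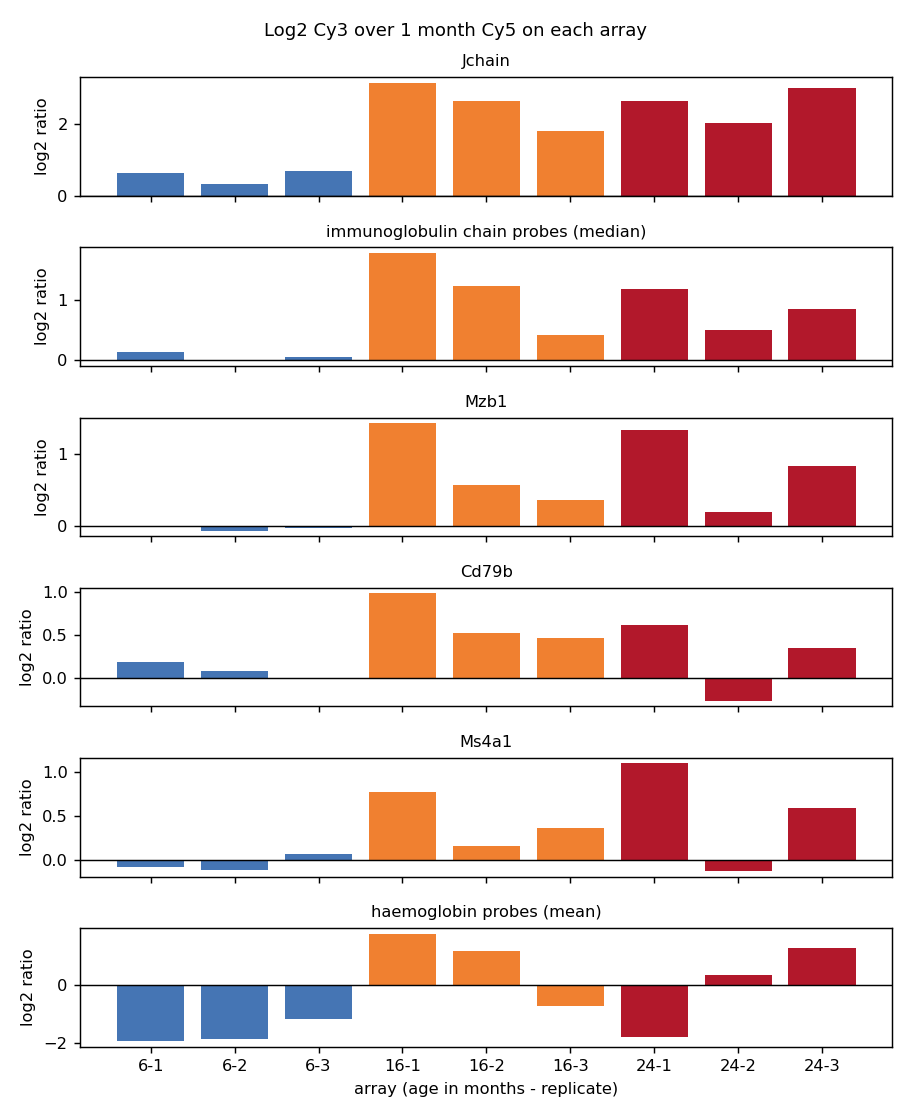
Log2 ratio of Cy3 over the 1 month Cy5 reference on each array (age in months and replicate) for Jchain, the median of 90 immunoglobulin chain probes, Mzb1, the B cell genes Cd79b and Ms4a1, and the mean of 4 haemoglobin probes. Bars start at 0 and vertical scales differ between panels. Cd79b and Ms4a1 were picked from the 14 B cell markers on the array, whose list median was at most 0.30 on any array. In 24 month replicate 1 Jchain stands at 2.66 while haemoglobin stands at -1.79.

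Haemoglobin, the oxygen carrier of red cells, differed between arrays. The mean log2 ratio of 4 haemoglobin probes, all named Hbb-b1, was -1.93, -1.85 and -1.16 at 6 months. It was 1.78, 1.18 and -0.71 at 16 months, and -1.79, 0.34 and 1.27 at 24 months. Of the 4, 1 probe did not follow the others, at -0.25 in 16 month replicate 1 and 0.01 in 24 month replicate 1. The other 3 stood there at 2.58, 2.31 and 2.47, and at -2.48, -2.09 and -2.60. No alpha-globin probe entered this mean. The 3 arrays highest in haemoglobin were 16 month replicates 1 and 2 and 24 month replicate 3, which also had the highest Jchain and Xbp1 log2 ratios of their ages. Without them Jchain stood at 1.82 in the remaining 16 month sample and averaged 2.34 in the 2 remaining 24 month samples. In the same 6 arrays the list genes called numbered 9 at 6 months, 0 at 16 months, where 1 array was left, and 13 at 24 months. At 24 months, replicate 1 had low haemoglobin and a Jchain log2 ratio of 2.66.

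The genes whose log2 ratios ran most like Jchain over the 9 arrays were picked among 2468 genes with an SD of at least 0.3. Each had a symbol, was read by 1 probe and had a value on all 9 arrays. The 20297 probes without a symbol were not compared. The 10 highest Pearson correlations were 0.98 for Ccl5, a chemokine of cytotoxic lymphocytes, 0.95 for Ccnk, 0.94 for Alkbh7 and Aifm2, 0.93 for Rnft2, Crybg3 and Tsnaxip1, and 0.92 for Ssbp4, Spp1 and Acsl3. Ccl5 had log2 ratios of -0.35, -0.59 and -0.35 at 6 months, 1.87, 1.24 and 0.57 at 16 months, and 1.65, 0.41 and 1.51 at 24 months. Against Jchain, the correlations of the members over the same arrays were 0.90 for Pou2af1 (8 arrays), 0.88 for Derl3, 0.77 for Xbp1, 0.74 for Irf4, 0.62 for Sdc1 and 0.47 for Prdm1, and that of the second J chain probe was 0.98. The ratios compared share their arrays and their dyes, and the 6 month samples stand apart from the others for Jchain, so these values describe likeness of pattern only.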

How the data were processed

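Thymocyte RNA from 18 samples, the 2 channels of 9 arrays, was measured. The scanner files hold intensity per feature as deposited: the processed signals had been background-subtracted and LOWESS dye-normalized (smooth factor 0.25), per the file headers, which name Feature Extraction 7.5.1, while the submitters' processing notes name 7.1. The value table holds a score per channel, as deposited by the authors, which equals the log10 processed signal expressed as a z-score.

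Here the log2 ratio of Cy3 over Cy5 processed signals was taken, outlier spots were left out and replicate spots averaged. The filter on dim probes kept 37448 that stood well above background in Cy3 throughout 1 age (3 arrays) or in Cy5 throughout (9 arrays). The depth of an array is its signal over background: 79.6% to 94.2% of features were well above it in Cy3 and 90.5% to 95.4% in Cy5. Precision is limited by how many arrays there are. Marked outliers numbered 34 to 52 on 7 arrays, 159 on that of 24 month replicate 1 and 179 on that of replicate 3. limma 3.58.1 (R 4.3.3) fitted a mean per age, two-sided, with Benjamini-Hochberg adjustment (prior degrees of freedom 1.94, residual 6). The p-values cover the spread between these arrays.

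Symbols came from RefSeq tables by accession (11450 probes), a further accession (5824), current symbol (2296) or synonym (1307), leaving 20297 unnamed. Each list gene had the probe of highest mean signal. Named are all members, up to 4 genes per list and comparison with the largest difference past the threshold (2 with the smallest p where none passed), the 10 genes most like Jchain, and haemoglobin. The members and lists were chosen with earlier results of these data known. Of the lists not described in the report, plasmacytoid dendritic cell genes called at 6, 16 and 24 months were 3, 4 and 5 of 12, conventional dendritic cell genes 0, 0 and 3 of 10, effector and regulatory T cell genes 0, 4 and 5 of 14, thymic epithelium genes 6, 3 and 2 of 12, and erythroid genes 1, 2 and 2 of 11. The thymic epithelium calls were all lower. The 18 thymocyte genes gave 7, 9 and 10 calls (38.9%, 50% and 55.6%), with several probes saturated. Of these calls 6 were higher and 1 lower at 6 months, 8 and 1 at 16 months, and 8 and 2 at 24 months. Over all probes the shares called at these ages were 12.4%, 18% and 24.9%.

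Alternatives were normexp background correction (offset 50) with loess or, added after seeing the data, with median centring (the "other correction" of the report), median-centred processed signals, the scores, no filter on dim probes, a replicate block, a haemoglobin covariate and leaving out arrays. Tables were made in Python 3.11.15 with pandas 2.3.3 and figures with matplotlib 3.10.9.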

Additional observations from a re-analysis of the deposited data

Results flagged for a closer look

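The Pou2af1 signal of the 1 month reference reached 3455 on the array of 24 month replicate 1, against a median of 1673 over the 9 Cy5 channels. Its gap to the next array on the log2 scale was 0.517 of the whole range, above the critical value of Dixon's test at 95% for 9 values. Chance gives such a gap in about 1 of 20 groups tested, and several probes and groups were examined. The same spot was marked as an outlier by the scanner software and does not enter the mean. Its Cy3 signal in the 24 month sample was 4589.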

How the results depend on the processing

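Of the 15 main values (6 counts of probes, 6 counts of list genes and 3 Jchain means), all kept their direction or stayed within 1.5 times with normexp and loess and with median-centred processed signals. All 12 counts did so without the filter on dim probes and with the deposited scores, although the scores turned the split of all probes to more lower than higher at 6 and 16 months. On their own scale Jchain stood at 0.227, 1.07 and 1.13 at 6, 16 and 24 months. Against 1 month, normexp with median centring called 19628, 16660 and 26569 probes (9140, 6868 and 11662 higher), 60 list genes at 6 months and 82 at 24 months, and gave Jchain means of 0.21 at 6 months and 1.69 at 24 months. The haemoglobin covariate left 17 probes and 0 list genes at 6 months. Without the 3 arrays highest in haemoglobin, 2632, 0 and 3650 probes and 9, 0 and 13 list genes were called. Fewer samples were then fitted, the lone 16 month array being assumed to vary like the rest. The cause was not tested elsewhere.

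Replicate numbers did not pair the samples: same-numbered samples did not all deviate together. A replicate block gave 2427 probes and 10 list genes at 6 months and changed none of the other 10 counts by over 1.5 times.

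Leaving out each array in turn gave 290 to 5406 probes at 6 months, 1240 to 7728 at 16 months and 3505 to 8712 at 24 months, with 2 to 24, 11 to 55 and 15 to 44 list genes. At 6 months 1666 probes and 6 list genes were called without 6 month replicate 1, 290 and 2 without replicate 2, 2525 and 14 without replicate 3, and 15 list genes without 16 month replicate 3. At 16 months the counts were 3855 and 29 without 16 month replicate 1, and 1240 and 11 without replicate 2, and 3441 probes without replicate 3. At 24 months they were 3505 and 15 without 24 month replicate 1, and 4099 and 21 without replicate 2, with 29 list genes without replicate 3 and 30 without 6 month replicate 2. Between ages 0 to 1 probes and 0 list genes were called. The Jchain means ranged from 0.48 to 0.66 at 6 months, 2.23 to 2.90 at 16 months and 2.34 to 2.84 at 24 months.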
